A study of Homo sapiens with 4 samples.

Results

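NFYA, NFYC, NFATC4, MEF2A and MEF2D are genes of sequence-specific transcription factors whose own transcripts are alternatively spliced. Every splicing event listed under these 5 gene symbols, of 12219 genes with events, was taken from the deposited 5 tables, 1 for each kind of alternative splicing. This gave 71 events of 121269 in all, of which 45 were skipped exons, 17 pairs of mutually exclusive exons and 3 retained introns, with 4 events of a choice between 3′ splice sites and 2 of a choice between 5′ splice sites. The genes were selected on the PSI differences between the 2 groups of libraries, so these differences are a description, and the p-values beside them are no independent evidence.

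RNA-seq had been performed on U87MG cells, a human line labelled as likely glioblastoma, transfected with 2.5 µM of an oligonucleotide by lipofection. RBFOXi is a decoy RNA with 2′-O-methyl riboses that carries repeats of UGCAUG, the motif bound by the splicing factors RBFOX1 and RBFOX2, and SCRM is the scrambled control oligonucleotide. There were 2 libraries of each, described as independent biological replicates, and the label of RBFOXi replicate 1 names a Cy5 dye on the oligonucleotide that the label of RBFOXi replicate 2 does not name. All 4 libraries are from the same line and received an oligonucleotide, and no untransfected cells entered the comparison.

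NF-Y is a heterotrimer that binds the CCAAT box of promoters. NFYA is the subunit that makes the specific DNA contacts and NFYC, with NFYB, supplies the histone-fold dimer it joins, and inclusion of a cassette exon in the glutamine-rich activation domain of NFYA gives the long isoform. NFATC4 belongs to the calcium-regulated NFAT factors, which enter the nucleus after the phosphatase calcineurin dephosphorylates them. MEF2A and MEF2D are MADS-box factors of muscle and neurons that carry a choice between mutually exclusive exons and a very short cassette exon (the beta exon).

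The sequences behind the main events were read from hg19 in the direction of transcription, 5′ to 3′. In NFYA the intron before the cassette exon ends in a pair of AG dinucleotides 3 nt apart, shown in capitals across chr6:41048520-41048562, which give an exon of 87 nt or of 84 nt. The capitals of the exon itself, chr6:41048550-41048636, mark the 3 nt that the shorter form lacks. In the start of the next intron, chr6:41048637-41048756, the capitals mark 2 copies of UGCAUG (written with T), which begin at nt 31 and nt 104 after the exon.
NFYA acceptors: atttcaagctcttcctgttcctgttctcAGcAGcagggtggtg
NFYA exon: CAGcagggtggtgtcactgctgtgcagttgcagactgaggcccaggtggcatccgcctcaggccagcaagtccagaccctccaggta
NFYA downstream intron: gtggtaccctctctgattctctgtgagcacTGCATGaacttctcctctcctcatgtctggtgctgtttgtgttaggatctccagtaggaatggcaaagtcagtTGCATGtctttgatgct

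In NFATC4 the same acceptor is joined by either of 2 donors, whose GT is in capitals at chr14:24845749-24845772 (upstream) and chr14:24846073-24846096 (downstream). The stretch between them holds 324 nt, or 108 codons with no change of frame. The intron after the downstream donor, chr14:24846085-24846843, has 759 nt and 2 copies of UGCAUG, in capitals at chr14:24846126-24846153 and chr14:24846264-24846291, which begin at nt 52 and nt 190 of the intron.
NFATC4 upstream donor: ggggtaccacagGTtgtgcccaac
NFATC4 downstream donor: cgctggaggaagGTgggtgtggga
NFATC4 first intronic copy: gagattgctcTGCATGtttgctgagggc
NFATC4 second intronic copy: ttctgaagagTGCATGgggtaactgtct

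Event counts summed over the skipped exon table ranged from 114415530 to 136097319 per library, with reads counted again in each event they touch. SCRM replicate 1 stood apart. Over 9927 genes with a mean of at least 100 counts, the log2 ratio of SCRM replicate 1 to SCRM replicate 2 had a median of -0.50 and quartiles of -1.52 and 0.30, against a median of -0.12 and quartiles of -0.35 and 0.11 between the RBFOXi libraries. All 6 glioma line markers fixed for the check (VIM, CD44, FN1, TNC, NES and EGFR) had counts over skipped exon events in every library. GFAP, AQP4 and RBFOX3 and the leukocyte and epithelial markers (PTPRC, CD3E, EPCAM and CDH1) had none. A gene without a listed skipped exon event also counts as 0, so these zeros do not show absent expression. SLC1A3, of the astrocyte list, had 607 to 3590 counts, and SNAP25 and SYT1, of the neuron list, summed to 1775 to 4769, with both lowest values in SCRM replicate 1.

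The members also differed in depth in that library. In CPM, the counts over a gene's skipped exon events scaled to the library's total in that table, NFYA had 8.39 and 10.98 in the RBFOXi libraries and 3.802 and 14.04 in SCRM replicates 1 and 2. MEF2A had 29.5 and 29.8 against 7.32 and 32.5, and MEF2D 23.4 and 27.9 against 14.05 and 23.3, so SCRM replicate 1 was the lowest library for each of these genes. NFATC4 went the other way, with 19.7 and 23.96 in the RBFOXi libraries, 37.5 in SCRM replicate 1 and 14.98 in SCRM replicate 2. NFYC was even, at 86.9 and 96.9 against 86.6 and 90.6. For NFYA, NFATC4 and MEF2A both RBFOXi values lay between the SCRM values, and the part of this spread in the splicing values below was not tested. These counts depend on the number and length of a gene's events and are compared only between libraries, not between genes.

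**Figure D1:**
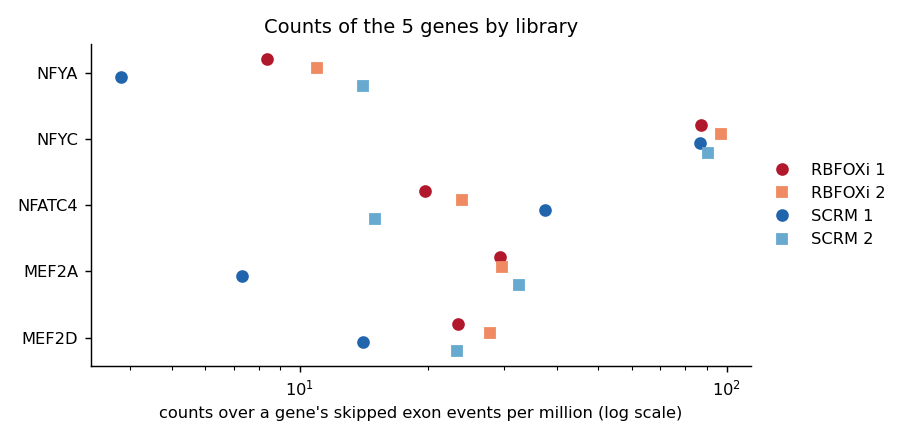
Counts of the 5 genes in their skipped exon events, in CPM on a log axis, 1 point per library (circles replicate 1, squares replicate 2). SCRM replicate 1 was the lowest library for NFYA (3.802), MEF2A (7.32) and MEF2D (14.05) and the highest for NFATC4 (37.5).

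Inclusion is given as PSI, the share of a form after its counts are divided by the length over which it can be counted, from 0 to 1, and delta PSI is the RBFOXi mean minus the SCRM mean. Of the 71 events, 45 had enough counts of both forms to be tested. Of the other 26, 24 had a mean PSI above 0.98 in both groups. The remaining pair were an NFYC exon with a mean of 11.2 counts per library and an NFATC4 event with 41.0. An event was called where limma gave an adjusted p under 0.05, over all events of the type, and delta PSI reached 0.1. In these terms 1 of 22 tested skipped exon events of the 5 genes was called, against 0.0682% of all 39615 tested (27 events), and the rule that chose the genes used that contrast. None of 17 mutually exclusive, 2 alternative 3′, 1 alternative 5′ and 3 retained intron events was called by limma, where 0% of all events of each of these types were called. At an unadjusted p under 0.05 limma counted 2 member skipped exon events (3.61% of all tested), 1 mutually exclusive (1.51%), 0 alternative 3′ (3.32%), 1 alternative 5′ (3.59%) and 2 retained intron events (1.74%). A quasi-binomial test called 0 members of each of the last 4 types, against 0.00764%, 0%, 0.0877% and 0% of all tested. Fisher's exact test, run on counts summed over a group, called 0, 0, 1 and 2 members, against 0.76%, 0.665%, 1.23% and 2.9% of all tested. The skipped exon events with an unadjusted p under 0.05 in limma were both forms of the NFYA exon. Every event of another type counted here lay at the NFATC4 exon with the downstream donor or its last intron, with shared counts. In the skipped exon table both RBFOXi libraries were below both SCRM libraries in 8 of the 22 events, against 16.5% of all tested, and above them in 2, against 14.3%. For mutually exclusive events these counts were 1 below (8.42% of all) and 5 above (16%) of 17. The 8 skipped exon events are not 8 separate exons, as they include both forms of the NFYA exon and NFYC events with shared skipping counts. With a mean PSI of 0.02 to 0.98 in a group, 5 skipped exon events were below and 1 above. For mutually exclusive events these were 1 and 3. The shares over all tested events were not restricted in this way. The median absolute delta PSI was 0.00692 over the 22 member exons and 0.00803 over all tested exons, so the typical member exon differed about as much as the typical exon.

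The NFYA cassette exon was the member with the largest difference, and it was included less in the RBFOXi libraries. The form of 84 nt, chr6:41048553-41048636, had 35 and 49 inclusion counts and 59 and 93 skipping counts in RBFOXi replicates 1 and 2. In SCRM replicates 1 and 2 it had 38 and 155 inclusion counts and 5 and 40 skipping counts. The libraries with RBFOXi thus held more skipping than inclusion counts, and both control libraries the reverse. PSI was 0.249 and 0.227 (95% Wilson intervals 0.179 to 0.334 and 0.173 to 0.293) against 0.809 and 0.684 (0.633 to 0.913 and 0.605 to 0.754), and the groups did not overlap. The means were 0.238 ± 0.0152 and 0.747 ± 0.0887 (SD, n = 2 each), a delta PSI of -0.51 and a log2 odds ratio of -3.21 (SE 0.52, adjusted p = 0.0393 in limma). Intervals cover counting error only.

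The event with the exon of 87 nt shares its skipping counts and most inclusion counts with the other and is no separate observation. Its PSI was 0.309 and 0.221 in the RBFOXi libraries and 0.815 and 0.698 in the SCRM libraries. This gave a delta PSI of -0.49 with an adjusted p of 0.0523 in limma, just outside the threshold. Without SCRM replicate 1, whose skipping rested on 5 counts, delta PSI was -0.45 for the form of 84 nt and -0.43 for that of 87 nt, and neither was called (adjusted p = 0.437 and 0.58). The call of the form of 84 nt was also lost without RBFOXi replicate 2 (delta PSI -0.50, adjusted p = 0.0793) and without SCRM replicate 2 (-0.57, adjusted p = 0.221). Across 12 other settings its adjusted p ranged from 1.1e-21 to 0.552, and delta PSI kept its sign whichever library was left out.

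The choice between the NFYA acceptors was a separate event. The first AG, which gives 87 nt, had a PSI of 0.845 and 0.490 in the RBFOXi libraries and 0.570 and 0.575 in the SCRM libraries, on 20, 32, 19 and 101 counts. RBFOXi replicate 1 was the highest and RBFOXi replicate 2 the lowest of the 4, so the groups overlapped (delta PSI 0.10, adjusted p = 0.999 in limma). Both exon lengths are multiples of 3. GENCODE 44 holds the exon of 87 nt, all of it coding, in 1 of 2 NFYA transcripts, and holds no exon with the ends of the form of 84 nt.

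The NFYA exon just before the cassette exon, chr6:41046768-41046903 (136 nt), was near full inclusion in all libraries. Its PSI was 0.912 and 0.984 in RBFOXi and 1 and 0.991 in SCRM, where SCRM replicate 1 had 0 skipping counts of 84. The difference was -0.048 (adjusted p = 1 in limma), and without RBFOXi replicate 1 it was -0.012. Whether the cassette exon and its neighbour differed in response was not tested.

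**Figure D2:**
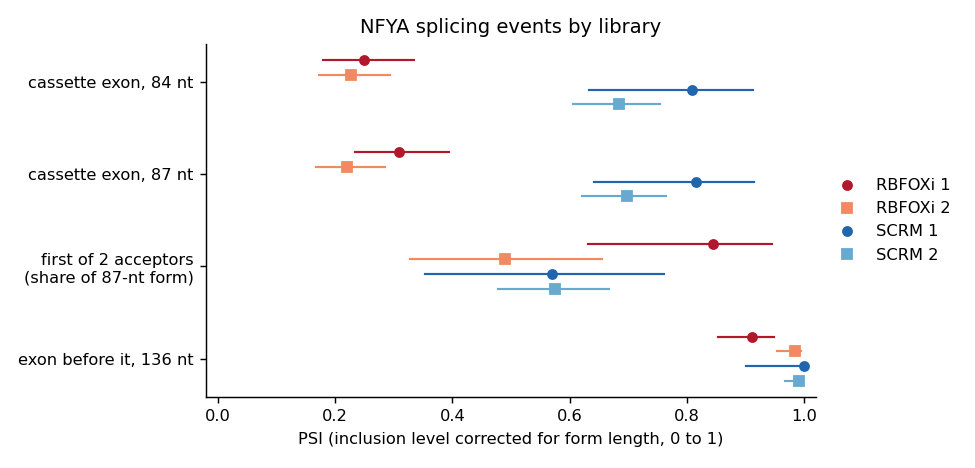
PSI of 4 NFYA events in each library with 95% Wilson intervals, which cover counting error only. At the cassette exon the RBFOXi libraries lie at 0.221 to 0.309 and the SCRM libraries at 0.684 to 0.815, while the acceptor choice overlaps between the groups and the exon before it stays above 0.9.

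In NFATC4 the last intron carried the differences, and the retained intron and 5′ splice site events describe the same stretch. The retained form after the downstream donor was a larger share in the RBFOXi libraries, which had 398 and 398 counts over the intron and 48 and 68 over its junction. The SCRM libraries had 575 and 134 intron counts and 201 and 63 junction counts. Per 1000 skipped exon counts of the gene, the intron counts were 162 and 122 in RBFOXi and 134 and 66.1 in SCRM, and the groups overlapped. The junction counts on that scale were 19.5 and 20.9 against 46.9 and 31.1, lower in both RBFOXi libraries. On that scale the groups were apart in the junction and not in the intron. The gene's skipped exon counts include events of the exon with the downstream donor, so the scale is not independent of donor use. PSI of the retained form was 0.462 and 0.377 against 0.228 and 0.180, with means of 0.420 ± 0.0598 and 0.204 ± 0.0340 (SD, n = 2 each). Both RBFOXi libraries were above both SCRM libraries in 1 of the 3 retained intron events, this one, against 15.3% of all tested, and below in the other two, against 12.7%. Delta PSI was 0.22 (adjusted p = 1 in limma) and was 0.24 without SCRM replicate 1, within a range of 0.17 to 0.26 when each library was left out in turn. As a plain share of counts, without the division by length, it was 0.16.

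The alternative 5′ splice site event sets the downstream donor, as the longer exon, against the upstream donor. The longer form was a smaller share in the RBFOXi libraries, at a PSI of 0.828 and 0.677 against 0.965 and 0.964 in the SCRM libraries. Its counts include reads in the stretch of 324 nt, which transcripts with the last intron retained also hold, so this PSI does not measure donor use alone. Both RBFOXi libraries were below both SCRM libraries, as in 14.1% of all tested 5′ splice site events. Delta PSI was -0.21 and the log2 odds ratio -2.92 (SE 0.60, adjusted p = 0.715 in limma). As a plain share of counts delta PSI was -0.061. Without RBFOXi replicate 1 the event was called (delta PSI -0.29, adjusted p = 0.0245), and without RBFOXi replicate 2 delta PSI was -0.14. Without SCRM replicate 1 it was -0.21, and over 12 other settings the adjusted p ranged from 4.84e-09 to 0.999. The other 5′ splice site event of NFATC4 had 1 skipping count in RBFOXi replicate 1 and 0 in the other libraries, with a PSI of 0.984 to 1, and was not tested.

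The intron counted from the upstream donor, chr14:24845761-24846843 (1083 nt), moved opposite to the intron counted from the downstream donor. Its retained form had a PSI of 0.802 and 0.603 in RBFOXi and 0.938 and 0.923 in SCRM, a delta PSI of -0.23 (adjusted p = 1 in limma). That retained form includes the exonic stretch of 324 nt, which is also present in transcripts spliced from the downstream donor, so its value does not measure retention alone. Without RBFOXi replicate 1 delta PSI was -0.33, without RBFOXi replicate 2 it was -0.13, and as a plain share of counts it was -0.027. An earlier intron, chr14:24843074-24843531 (458 nt, 0 copies of UGCAUG), was retained at 0.172 and 0.105 in RBFOXi and 0.233 and 0.203 in SCRM (delta PSI -0.079, adjusted p = 1 in limma), in the opposite direction to the last intron. Without RBFOXi replicate 2 this difference was -0.046, and as a plain share of counts it was -0.14.

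The junction counts separate the donors directly. Reads joined the upstream donor to the last exon 11 and 31 times in RBFOXi replicates 1 and 2, and 5 and 2 times in SCRM replicates 1 and 2. The upstream donor therefore took 18.6% and 31.3% of the junction counts of both donors (95% Wilson intervals 10.7 to 30.4 and 23.0 to 41.0) in the RBFOXi libraries. In the SCRM libraries it took 2.43% and 3.08% (1.04 to 5.56 and 0.848 to 10.5). The groups did not overlap, with means of 24.98% ± 8.96 and 2.75% ± 0.459 (SD, n = 2 each). With 2 libraries a group an exact permutation test cannot give a two-sided p below 0.333, so no test was made of these shares, which were added after the event values had been seen.

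Dividing the counts by the length of each form gave the shares of the last intron retained, spliced from the downstream donor and spliced from the upstream donor. The downstream donor took 47.9% and 48.5% of the 3 forms in the RBFOXi libraries and 75.7% and 79.9% in the SCRM libraries. The retained form took 41.1% and 29.4% against 22.4% and 17.6%, and the upstream donor 10.98% and 22.1% against 1.88% and 2.54%. The sum of the shares is fixed, so a lower share of the downstream donor raises the other shares. On the scale of gene counts, which is not independent of donor use, the intron overlapped between the groups. The upstream donor had 4.48 and 9.51 junction counts per 1000 in RBFOXi and 1.17 and 0.987 in SCRM, which did not overlap. SCRM replicate 1, where NFATC4 had the most counts, and SCRM replicate 2, where it had the fewest, gave like shares. Whether the counts of the gene bear on the shares was not tested.

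In GENCODE 44 the choice changes the end of the protein. All 7 transcripts with the intron retained stop at chr14:24846147-24846149, after 62 further coding nt in the intron, whereas all annotated stops of the transcripts spliced from either donor lie at chr14:24846909-24846911 in the last exon. The first copy of UGCAUG, chr14:24846136-24846141, ends 5 nt before the retained form's stop, the tga in lower case of the first intronic sequence above. UGCAUG occurred in 15.6% of the 1034 tested retained introns, in 38.8% of the 345 of at least 500 nt, and at least 2 copies in 3.29% of all. These are properties of the sequence and give no measure of binding.

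**Figure D3:**
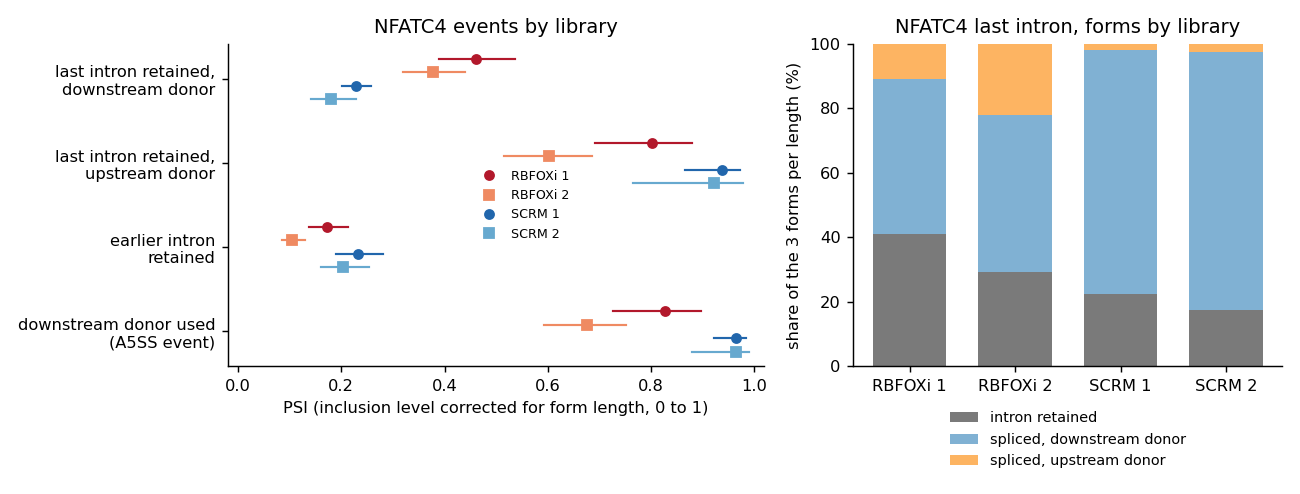
Left, PSI of the 3 retained intron events and the tested 5′ splice site event of NFATC4 in each library with 95% Wilson intervals; right, the length-corrected shares of the 3 forms of the last intron. The downstream donor fills 47.9% and 48.5% of the RBFOXi bars and 75.7% and 79.9% of the SCRM bars.

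The other tested NFATC4 events set neighbouring exons side by side. The exon of 127 nt, chr14:24845181-24845307, against the exon with the downstream donor had a PSI of 0.607 and 0.581 in RBFOXi and 0.471 and 0.530 in SCRM, with no overlap. Delta PSI was 0.094 (adjusted p = 1 in limma). Its second exon holds the stretch of 324 nt, so it shares counts with the 5′ splice site event. The same exon against the exon with the upstream donor gave 0.649 and 0.589 against 0.579 and 0.626, which overlapped. As cassette exons, the exon of 127 nt and that of 56 nt before it were included at 0.936 to 0.983 in every library.

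The MEF2 genes carry a very short cassette exon, shown here in capitals with 12 nt of intron on each side, at chr15:100243555-100243602 for MEF2A and chr1:156446274-156446318 for MEF2D. The MEF2D copy of UGCAUG closest downstream is in capitals within chr1:156446036-156446065, and begins at nt 233 of the intron. Both exons are coding and multiples of 3. As background, the beta exon lies in the activation region and is included mainly in muscle and brain.
MEF2A 24-nt exon: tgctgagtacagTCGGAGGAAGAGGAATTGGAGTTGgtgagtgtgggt
MEF2D 21-nt exon: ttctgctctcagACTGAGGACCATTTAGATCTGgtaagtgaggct
MEF2D downstream copy: tacatgaatgtcTGCATGtggtattatgtt

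The MEF2A exon of 24 nt was mostly skipped. Its PSI was 0.171 and 0.030 in RBFOXi replicates 1 and 2 and 0.464 and 0.050 in SCRM replicates 1 and 2, on 11 of 146, 2 of 167, 12 of 47 and 4 of 195 counts. SCRM replicate 1 stood above the other libraries, and its partner SCRM replicate 2 lay between the RBFOXi values, so the groups overlapped. Delta PSI was -0.16 (adjusted p = 1 in limma) and turned to 0.050 without SCRM replicate 1. The MEF2D exon of 21 nt was included at 0.052 and 0.107 in RBFOXi and 0.143 and 0.079 in SCRM, which also overlapped (delta PSI -0.031, adjusted p = 1 in limma). Without SCRM replicate 1 its difference was 0.00104. The MEF2D exon rested on 5 to 15 inclusion counts per library.

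The other named MEF2 exons differed little between the groups. The MEF2A exon of 82 nt at chr15:100138635-100138716, annotated as UTR in 9 transcripts, was included at 0.791 and 0.813 against 0.821 and 0.769. A further 5′ exon of 208 nt, chr15:100161078-100161285, had 0.081 and 0.096 against 0.067 and 0.105. Neither moved by as much as 0.01 in the mean. The MEF2D exon of 307 nt, chr1:156437785-156438091, had a PSI of 0.946 and 0.950 in RBFOXi and 1 and 0.952 in SCRM. The RBFOXi libraries were the lowest, next to SCRM replicate 2 (delta PSI -0.028, adjusted p = 1 in limma).

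Other named mutually exclusive events of the MEF2 genes set neighbouring exons side by side. In MEF2D, the exon of 138 nt against that of 211 nt had a PSI of 0.446 and 0.380 in RBFOXi and 0.468 and 0.457 in SCRM. Both RBFOXi libraries were the lowest (delta PSI -0.049, adjusted p = 1 in limma). The MEF2D exon of 191 nt against that of 130 nt had 0.312 and 0.315 against 0.307 and 0.334, which overlapped. In MEF2A, a pair of exons of 127 nt each had 0.277 and 0.246 against 0.289 and 0.248, also with overlap. As cassette exons, the MEF2D exons of 138, 191 and 130 nt and both of these MEF2A exons had a PSI of 0.972 or more in every library.

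**Figure D4:**
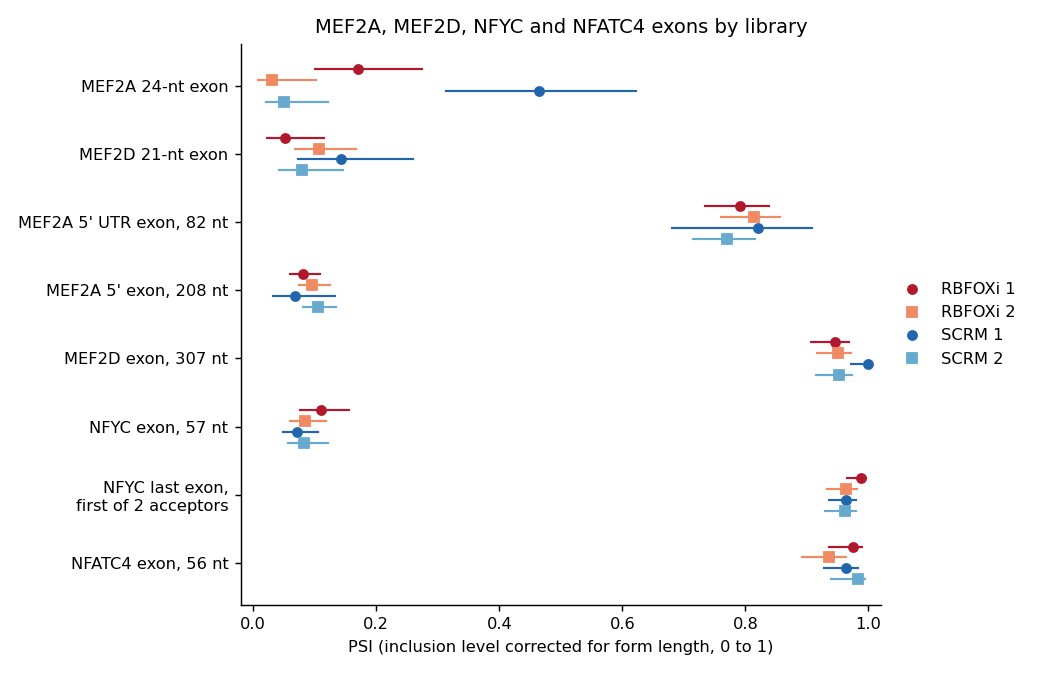
PSI of named MEF2A, MEF2D and NFYC exons and of the NFATC4 exon of 56 nt in each library, with 95% Wilson intervals for counting error. The MEF2A exons of 204 nt and 188 nt are not drawn. For most exons the libraries of both groups interleave, and the MEF2A exon of 24 nt spreads from 0.030 in RBFOXi replicate 2 to 0.464 in SCRM replicate 1.

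NFYC events differed little between the groups. Its 16 tested events had delta PSI between -0.0047 and 0.042, and the lowest unadjusted p among them in limma was 0.201. The coding exon of 57 nt, chr1:41232590-41232646, was a minor form, with a PSI of 0.109 and 0.085 in RBFOXi and 0.072 and 0.083 in SCRM. Both RBFOXi libraries were above both SCRM libraries, by less than the range within the RBFOXi group (delta PSI 0.020, adjusted p = 1 in limma). The last exon of NFYC has acceptors 3 nt apart, like the NFYA cassette exon, and the first was used at 0.988 and 0.964 against 0.964 and 0.962. Of the mutually exclusive events, that of the exons of 174 nt and 159 nt had the largest difference, 0.601 and 0.601 against 0.530 and 0.588. These are neighbouring coding exons that the skipped exon table gives as included at over 0.99 in every library, so that PSI compares their counts and not a choice.

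UGCAUG near the exons was tabulated because it was not used to choose the genes. Of 12 named cassette exons of the 5 genes, counting the NFYA exon once, 2 had a copy within 300 nt downstream of the exon, namely NFYA and MEF2D (21 nt), and 0 had a copy within 300 nt upstream. Over all tested skipped exon events the shares were 8.41% and 8.41%, and at least 2 downstream copies, as in NFYA, occurred in 0.591%. Searching for GCATG alone gave 3 of 12 exons, against 24.4% of all. The reverse complement CATGCA was in the first 300 nt downstream of 6.5% of all exons and of 0 named exons. The MEF2A exon of 24 nt had its closest downstream copy at nt 457, outside that window. In the whole downstream intron 9 of the 12 had a copy of UGCAUG, against 53% of all, and in the whole upstream intron 7, against 54.4%. The shares over all tested exons include near-constant exons, which the named set leaves out. The tested exons with a copy overlap between events, and a match of letters is no measure of binding.

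**Figure D5:**
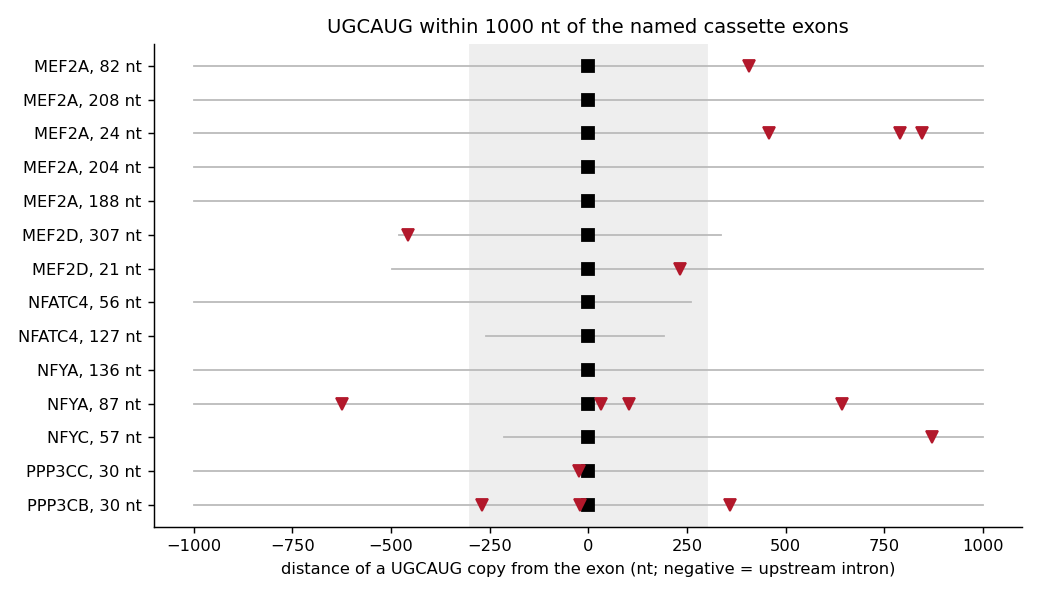
Position of UGCAUG copies around the named cassette exons, in nt from the exon, with negative values for the upstream intron. Black squares are exons, red triangles copies, grey lines the part of the introns drawn and the shaded band 300 nt on each side. Whole introns were searched, and copies further out are not drawn, such as that at nt 1018 downstream of the NFYA exon of 136 nt. NFYA (87 nt) has copies at nt 31 and nt 104 downstream, and the PPP3CC and PPP3CB exons have them at nt 24 and nt 22 upstream.

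The pathway list was NFYB, the other NFAT and MEF2 genes, calcineurin with its regulators, NFAT and MEF2 kinases, MEF2-binding histone deacetylases, and the co-activators EP300 and CREBBP. Of its 27 genes 25 had events, and 183 of 332 events were tested. limma called 0 of the 183, against 0.0374% of all 72115 tested events, and 4 had an unadjusted p under 0.05, against 2.81%. The median absolute delta PSI was 0.0194, against 0.0125 over all tested events. Both RBFOXi libraries were below both SCRM libraries in 24 events, against 13.3% of all tested, and above in 25, against 15.1%. The quasi-binomial test called 1, in PPP3CB, against 0.101% of all tested, and Fisher's exact test 3, in NFATC3, PPP3CB and PPP3CC, against 0.824%. Without SCRM replicate 1 limma called 0, and without SCRM replicate 2 it called 11 events of 6 genes (EP300, GSK3B, MAPK7, NFAT5, NFATC3 and NFYB), and 1455 over all types where all 4 libraries gave 27.

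The non-overlapping events with the largest differences in this list, named by size, were in the catalytic subunits of calcineurin and in NFATC3. The PPP3CC exon of 30 nt had a PSI of 0.485 and 0.593 in RBFOXi and 0.250 and 0.301 in SCRM (delta PSI 0.26, adjusted p = 0.816 in limma). The PPP3CB exon of 30 nt had 0.491 and 0.507 against 0.294 and 0.260 (delta PSI 0.22, adjusted p = 0.831 in limma). Both were higher in the RBFOXi libraries, where the NFYA exon was lower. The closest copy of UGCAUG lies at nt 24 upstream for PPP3CC and at nt 22 upstream for PPP3CB, which also has a copy at nt 360 downstream. Whether the side of a copy goes with the direction of the difference was not tested. An upstream copy in the last 300 nt is found in 8.41% of tested exons.

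The PPP3CB exon, chr10:75199630-75199659 on the minus strand, is printed after the last 60 nt of its intron, chr10:75199630-75199719 in all, for the position of the copy, in capitals.
PPP3CB upstream intron and exon: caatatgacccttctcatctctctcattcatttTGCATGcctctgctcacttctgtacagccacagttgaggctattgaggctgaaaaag

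In NFATC3, a further calcium-regulated NFAT factor, a mutually exclusive pair had a PSI of 0.329 and 0.439 in RBFOXi and 0.579 and 0.609 in SCRM. Both RBFOXi libraries were the lowest, on 58 to 131 counts per library (delta PSI -0.21, adjusted p = 1 in limma).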

How the data were processed

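Splicing was measured by RNA-seq in 2 RBFOXi and 2 SCRM libraries of U87MG. The authors aligned paired-end reads uniquely with STAR 2.4.2a to hg19 and counted inclusion and skipping reads per event with rMATS on UCSC known genes. The deposited values are raw counts on the target and its junctions, with both replicates in 1 cell, beside effective form lengths. The authors' p-values and inclusion differences were not used.

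PSI was computed from counts divided by form length. limma 3.58.1 was fitted per event type to log2((inclusion + 0.5)/(skipping + 0.5)) with a variance trend and Benjamini-Hochberg adjustment, keeping events with a minimum of 5 counts per library, a mean of 20 and 4 counts of either form in total. On simulated data, with 200 events moved by 2 log2 units, limma found 47.5% of the changed skipped exon and 91.5% of the mutually exclusive exon events. It found 73.5% of the alternative 3′, 83.4% of the alternative 5′ and 85% of the retained intron events. For skipped exons limma made 95 true and 2 false calls, and the quasi-binomial test 137 true and 112 false calls. False calls were 11 in limma and 23 in the quasi-binomial test for alternative 5′ events, and 10 and 1 for mutually exclusive events. All simulated libraries had the same extra spread, and none stood apart as SCRM replicate 1 did in the data. These rates therefore do not give the power in the data. Regions with a mean PSI of 0.02 to 0.98 in a group were named through their event with most counts, and up to 3 pathway events by size. Members and lists were chosen with earlier results of these data known. Sequences and gene models were read from GRCh37, which is hg19, and GENCODE 44. A further mutually exclusive exon pair of MEF2A enters the counts but is not reported here.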

Additional observations from a re-analysis of the deposited data

How the results depend on the processing

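The number of member skipped exon events called was 1 with all libraries, against 27 over the whole type. Where it was 2, both were forms of the NFYA exon. It was 2 under the quasi-binomial test (69 over the type), Fisher's exact test on summed counts (317) and a pseudocount of 1 (40). It was also 2 under a filter of 20 counts (27) and a variance trend on the harmonic mean, added after seeing the data (66). With a pseudocount of 0.1 it was 0 (1 over the type). It ranged from 0 to 2 when each library was left out in turn. Fisher's exact test called 1 alternative 5′ splice site and 2 retained intron events (28 and 30 over all events of these types). With each library left out in turn, delta PSI of the tested alternative 5′ splice site event was -0.29 to -0.14. For the NFATC4 exon of 127 nt against the exon with the downstream donor it was 0.064 to 0.12. Calls of both events depended on the library left out. Among the other pathway genes the quasi-binomial test called 1 event, Fisher's exact test 3, and leaving out libraries 0 to 11. As a plain share of counts, delta PSI of the NFATC4 events after the downstream and upstream donors, of the earlier intron and of the donor choice was 0.16, -0.027, -0.14 and -0.061. Fisher's exact test takes summed counts and leaves out the spread between libraries. The cause of the other changes was not tested.

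Libraries of the 2 groups share replicate numbers, and same-numbered libraries share a title suffix whose meaning is not given. With the replicate block limma called 2 member skipped exon events, both of the NFYA exon, and 119 over the whole type. It called 3 events of the other pathway genes and 196 over all types. Without the block limma called 27 events over all types, all of them skipped exons. With the block the NFYA form of 87 nt had an adjusted p of 1.55e-05 in limma. The deviations of same-numbered libraries correlated at 0.0944 over skipped exon events and at 0.0836 to 0.118 over the types, with 2 pairs, so the numbers were not taken as pairs.

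Of 30 named regions, 16 kept the sign of delta PSI in every setting. Depth limits the NFYA exon most in SCRM replicate 1, with 43 counts, and MEF2A there with 47.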
